A study of Equus caballus with 12 samples.

Results

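The microRNA miR-486-5p was followed across the heart, lung and liver of 4 horses. It was chosen by name and not by its values, although earlier results of these data were known. Its entry, eca-miR-486-5p, is 1 of 294 entries named as known horse miRNAs and 1 of 629 entries in all. The animals (horses 27, 30, 32 and 34) were healthy cold-blooded stallions aged 1 to 2 years, sampled at slaughter. The study names no treatment. Each gave the left ventricle of the heart, the caudal lobe of the right lung and the right lobe of the liver, so that there were 12 small RNA libraries, 4 per tissue. Whole tissue was sequenced and no blood library was among the samples, so that miR-486-5p made by the cells of a tissue and miR-486-5p brought in by its blood cannot be told apart, nor can fewer cells and less RNA per cell. Values are normalized counts, which are read counts divided by a size factor for each library.

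A miRNA is a short RNA that guides the Argonaute protein to partly matching sites in mRNAs and lowers their output. In mammals, miR-486-5p is cut from a hairpin within the gene of ankyrin-1 (ANK1), and in the RefSeq horse annotation MIR486 likewise lies within the span of ANK1. Ankyrin-1 ties the red cell membrane to its skeleton and has a short form in striated muscle, and the miRNA is abundant in both cell types. FOXO1, a transcription factor that promotes muscle wasting, is among its known targets in muscle.

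miR-486-5p was detected in all 12 libraries and was highest in heart, lower in lung and lowest in liver. Its normalized count in heart was 99611 in horse 27, 66906 in horse 30, 114650 in horse 32 and 160133 in horse 34. In lung it was 66840.1, 55783, 25444 and 23889 in the same order of horses. In liver it was 6377, 6888, 5066 and 4149.8. The means were 110325 ± 38728 in heart, 42989 ± 21643 in lung and 5620.3 ± 1245 in liver (SD, n = 4). The values of the 3 tissues did not overlap, as was so for 52.3% of tested miRNAs between heart and liver, 52.7% between lung and liver and 44.5% between heart and lung. Heart and lung met at their edges, however, since the lowest heart value (horse 30) and the highest lung value (horse 27) had overlapping 95% counting intervals, of 66289 to 67527 and 66386 to 67296 normalized counts (exact Poisson). Lung held a pair of horses with high values (27 and 30) and a pair with low values (32 and 34), and the highest was 2.80 times the lowest, against 2.39 times in heart and 1.66 times in liver.

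**Figure D1:**
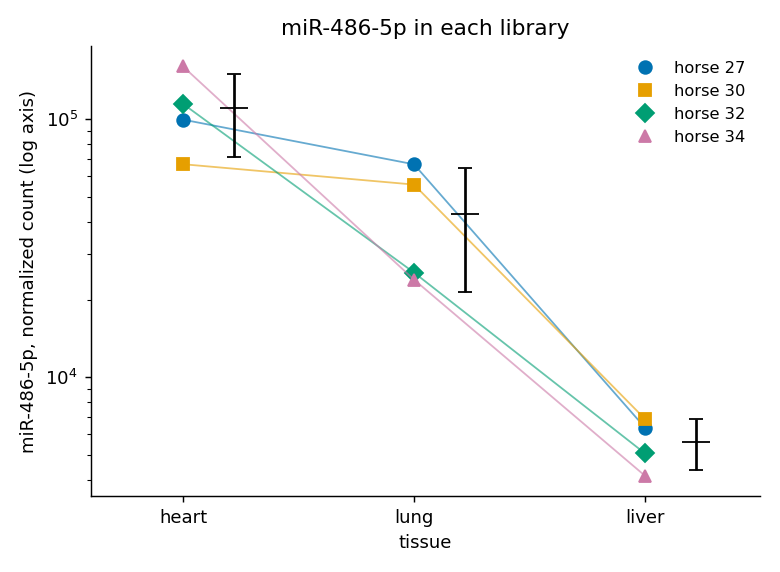
Normalized count of miR-486-5p (log axis) in each library by tissue, with a line joining the libraries of 1 horse and, beside the points, the mean and SD of 4 libraries. All 4 heart points lie above all 4 lung points and all lung points above all liver points, with the heart of horse 30 (66906) level with the lung of horse 27 (66840.1).

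These values rested on many reads. The lowest value above 0 in each library was taken as 6 reads, the minimum count in the study's methods, and on that basis miR-486-5p had 45019 to 102566 reads per heart library, 21115 to 90222 per lung library and 3447 to 8561 per liver library. The table held 3066869 to 9355513 reads per library, with the fewest in the liver of horse 27 and the lung of horse 34. Counting error was thus small beside the spread between horses, and covers neither sampling nor PCR.

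Heart held 19.1 times as much miR-486-5p as liver by the fit across all 256 tested miRNAs, with a log2 fold change of 4.25 (SE 0.38, limma adjusted p = 1.36e-06). Within horses the fold ran from 9.71 in horse 30 to 38.6 in horse 34, with 15.6 in horse 27 and 22.6 in horse 32. In this comparison 46.9% of tested miRNAs were called in either direction, which took a log2 fold change of 1 or more in size beside an adjusted p under 0.05. Those called higher in heart were 19.9% and those called lower 27%. A call as such was therefore common. By size, the log2 fold change of miR-486-5p was the 15th highest of 256.

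Lung also held more miR-486-5p than liver, 7.04 times as much, with a log2 fold change of 2.82 (SE 0.38, limma adjusted p = 5.52e-05). Lung exceeded liver 10.5 times in horse 27, 8.10 times in horse 30, 5.02 times in horse 32 and 5.76 times in horse 34. Here 51.6% of tested miRNAs were called, 25% higher and 26.6% lower in lung. The log2 fold change of miR-486-5p ranked 28th from the highest. The libraries of liver enter both comparisons, so the 2 results are not independent of each other.

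Between heart and lung the difference was smaller, and its size hung on how libraries were scaled. On the authors' scale, heart exceeded lung 2.71 times, with a log2 fold change of 1.44 (SE 0.38, 95% interval 0.61 to 2.26, limma adjusted p = 0.00839), the 48th highest of 256. In this comparison 38.7% of miRNAs were called, 19.1% higher and 19.5% lower in heart. Within horses, heart was 1.49 times lung in horse 27 and 1.20 times in horse 30, but 4.51 times in horse 32 and 6.70 times in horse 34. Heart was higher in 4 of 4 horses, and the fold was large in the pair with low lung values. Leaving out horse 32 brought the log2 fold change to 1.19, and leaving out horse 34 to 1.003, and neither was called (limma adjusted p = 0.0800 and 0.0634). With the horse as a block the value stayed at 1.44 and was called (limma adjusted p = 0.0204).

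Heart libraries differed from the others in 1 respect that bears on scaling. miR-1, the most abundant miRNA of heart and a driver of muscle differentiation, took 43.2% to 51.7% of all known miRNA reads there. In lung its part was 0.166% to 0.235%, and in liver 0.0238% to 0.107%. Normalized counts over known miRNAs summed to between 10082572 and 15133835 in heart libraries, between 3811674 and 5028347 in lung libraries and between 4344988 and 5547413 in liver libraries. A normalized count of heart was thus set against a larger total than the same count in lung.

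As a share of known miRNA reads, miR-486-5p did not separate heart from lung. Its share in heart was 0.988% in horse 27, 0.561% in horse 30, 1.11% in horse 32 and 1.06% in horse 34. In lung it was 1.41%, 1.27%, 0.506% and 0.627%. In liver it was 0.115%, 0.143%, 0.117% and 0.0750%. The 95% Wilson intervals of single shares reached at most from 1.40% to 1.42%, for the lung of horse 27. Intervals of different horses in 1 tissue did not overlap, except those of horses 27 and 32 in liver. By share, heart was below lung in horses 27 and 30 and above it in horses 32 and 34.

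The mean share was 0.929% ± 0.250 in heart, 0.952% ± 0.452 in lung and 0.112% ± 0.0279 in liver (SD, n = 4). Heart exceeded liver 8.28 times and lung exceeded liver 8.48 times, each in 4 of 4 horses (exact two-sided permutation test, p = 0.0286, the smallest that 4 against 4 allow, and 0.0429 adjusted over 3 comparisons). Heart and lung differed by 0.0230 percentage points (exact permutation p = 0.971). In the limma fit with every library brought to the same total of known miRNAs (CPM), heart over lung was 0.050 on the log2 scale, a fold of 1.04, with a 95% interval of -0.74 to 0.84 on the log2 scale (limma adjusted p = 0.944), and was not called. The upper end of that interval is a fold of 1.79, and the lower end on the authors' scale one of 1.53. Under CPM, 10.2% of miRNAs were called higher in heart than liver, 27.3% higher in lung than liver and 5.86% higher in heart than lung.

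With miR-1 left out of the denominator, the share of miR-486-5p in heart rose to 1.84%, 1.05%, 1.95% and 2.19% in horses 27, 30, 32 and 34, and that in lung stayed at 1.41%, 1.27%, 0.507% and 0.628%. Heart then lay above lung in 3 horses and below it in horse 30, and the mean was 1.84 times higher (exact permutation p = 0.0857). With the members of the striated muscle and hepatocyte lists left out, heart was above lung in all 4 horses, by 1.04 times in horse 30 and by 1.84 to 4.46 times in the others (exact permutation p = 0.0571). Neither difference passed the test.

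**Figure D2:**
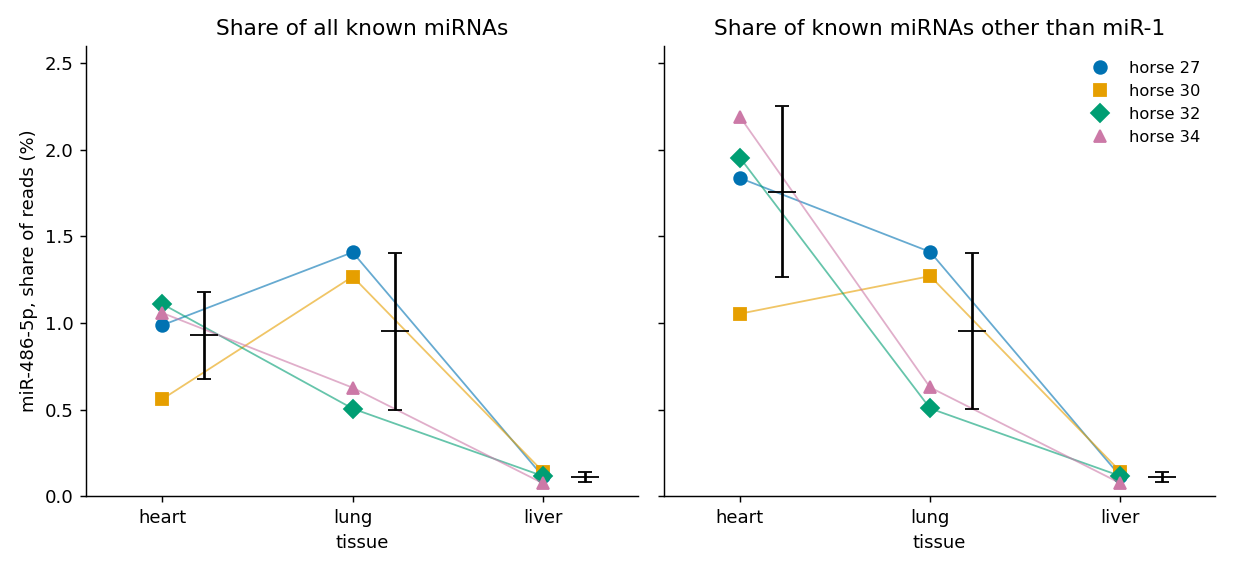
Share of miR-486-5p among the reads of known miRNAs, in percent, in each library by tissue, over all known miRNAs (left) and over those other than miR-1 (right), with lines joining the libraries of 1 horse and the mean and SD of 4 libraries beside the points. On the left, lung lies above heart in horses 27 and 30 and below it in horses 32 and 34, and on the right lung lies above heart in horse 30.

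Across 6 scalings, the log2 fold change of miR-486-5p over liver ran from 3.04 (CPM) to 4.49 (upper quartile) in heart and from 2.45 (without the striated muscle and hepatocyte lists) to 2.99 (without miR-1) in lung, and each was called. That of heart over lung ran from 0.050 under CPM to 1.69 under upper quartile scaling. It was 1.27 with TMM and 1.25 without the 2 lists, both called, and 0.96 without miR-1, which fell short of the fold minimum (limma adjusted p = 0.0473). Over all tested miRNAs, the median shift that CPM brought was -1.01 in heart over liver, 0.15 in lung over liver and -1.08 in heart over lung, in log2 units. Relative to the median of all tested miRNAs, miR-486-5p in heart over lung was higher by 1.44 on the authors' scale and by 1.13 under CPM. The order heart, lung, liver therefore rests on the scale in its first step, and the step down to liver was called on each scale used.

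**Figure D3:**
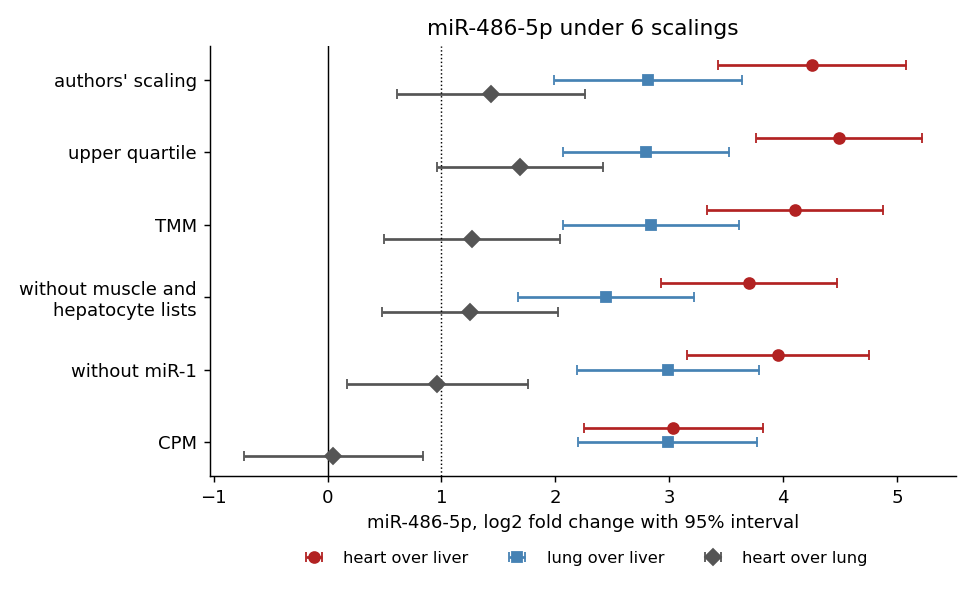
Log2 fold change of miR-486-5p with its 95% interval from limma in 3 comparisons (colours and symbols) under 6 scalings, with a solid line at 0 and a dotted line at the fold minimum of 1. The heart over liver and lung over liver intervals all lie above 1, and those of heart over lung run from 0.61 to 2.26 on the authors' scale and from -0.74 to 0.84 under CPM.

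A ratio between miRNAs of 1 library needs no scaling. miR-128, a widely expressed miRNA rich in brain, was the control in the study's quantitative PCR. The ratio of miR-486-5p to miR-128 was 9.03, 3.56, 3.87 and 2.49 in the hearts of horses 27, 30, 32 and 34. It was 3.86, 4.21, 0.759 and 1.54 in their lungs and 0.400, 0.289, 0.207 and 0.141 in their livers. Liver lay below the other tissues in every horse, whereas heart and lung overlapped. On the log2 scale, heart exceeded liver by 4.12 and lung exceeded liver by 3.12 (exact permutation p = 0.0286 each, 0.0429 adjusted over 3 comparisons), and heart exceeded lung by 1.01 (p = 0.257, exact permutation), higher in 3 of 4 horses. miR-128 itself ranged from 11031 to 64248 normalized counts among the 4 heart libraries, so it was not a steady reference there.

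With other references the difference between heart and lung was larger. The log2 ratio of miR-486-5p in heart exceeded that in lung by 1.87 against let-7a, by 2.03 against miR-191a and by 1.43 against miR-26a (exact permutation p = 0.0286, 0.0286 and 0.0857, each the same when adjusted over its 3 comparisons). Against 3 miRNAs that are abundant in red cells and in most other cells, it was higher in heart than in lung by 2.66 for miR-16, 2.21 for miR-25 and 1.08 for miR-92a (exact permutation p = 0.0286, 0.0286 and 0.0571, the first 0.0429 adjusted over its 3 comparisons and the others unchanged). Lung over liver was 0.89 against miR-16 (exact permutation p = 0.0571), 1.89 against miR-25 and 3.37 against miR-92a. In lung, the excess of miR-486-5p over liver thus depended on which red cell miRNA it was read against. A ratio also carries the change of its reference. Mean normalized counts in heart and lung were 526974 and 662152 for let-7a and 25759 and 39004 for miR-191a. They were 6831 and 15589 for miR-16 and 10535 and 17809 for miR-25, so these references were lower in heart. miR-26a (808359 and 787080) and miR-92a (34372 and 27630) were higher in heart.

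Among the 294 known miRNAs, miR-486-5p ranked 14th to 19th by library in heart. Its rank in lung ran from 15th to 30th, and in liver from 45th to 60th. By mean, it stood 18th in heart, between let-7g (117624 ± 77340.3) and miR-199b-5p (84481 ± 11557, SD, n = 4). In lung it stood 19th, between miR-146a (45409.5 ± 25189.9) and miR-125a-5p (39687 ± 15680.1). In liver it stood 52nd, between miR-340-5p (5736 ± 1918) and miR-140-5p (5147 ± 884). In each tissue these neighbours lay within 1 SD of miR-486-5p, so its place among them is not resolved. The most abundant miRNAs were miR-1 in heart, miR-26a in lung and the hepatocyte miRNA miR-122 in liver. Ranks compare reads and not molecules, because adapters are ligated to different miRNAs with different efficiency.

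The miRNAs that red cells share with few other cells could be read only in part. Of that list (miR-451, miR-144, miR-486-5p and miR-486-3p), miR-451 and miR-486-3p were not analysed here, and miR-144, made from the same transcript as miR-451 during red cell formation, fell below the filter. miR-144 was at 0 in all 4 heart libraries. It was at 1350 normalized counts in the lung of horse 34 and at 0 in the other 3 lungs. In liver it was at 44.4 in horse 27, 163 in horse 32 and 0 in the others. By the minimum count, a 0 means that a name had under 6 reads, and reads of a similar sequence can stand under another name. The name miR-144 therefore cannot be compared between tissues or read beside miR-486-5p.

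miRNAs that are abundant in red cells but made in most cells tended to be higher in lung than in liver, as miR-486-5p was. As a list they were not higher in heart than in liver or lung. Of 12 tested, 1 was called higher and 1 lower in heart than in liver, where 19.9% of all tested miRNAs were called higher and 27% lower. In lung against liver 6 were higher and 1 lower (all tested, 25% and 26.6%), and in heart against lung 0 were higher and 4 lower (all tested, 19.1% and 19.5%). Their median log2 fold change was -0.11 in heart over liver (all tested, -0.23), 1.01 in lung over liver (all tested, 0.08) and -0.92 in heart over lung (all tested, 0.00). miR-92a, encoded in the miR-17 cluster, was at 34372 ± 3768 in heart, 27630.3 ± 8050.3 in lung and 39395 ± 4733 in liver (SD, n = 4), and was called in none of the comparisons. miR-103, a regulator of insulin sensitivity, was listed at 0 in the heart of horse 27 and the lung of horse 34 and at 11805 to 50229.8 elsewhere, so its name cannot be compared. Under CPM, 0 were called higher and 10 lower in heart than in lung, where that scaling called 5.86% of all tested miRNAs higher and 48.4% lower. In lung against liver it called 7 higher and 1 lower (all tested, 27.3% and 25.4%). Without miR-103, the other 11 summed to 58728 to 70909 normalized counts in heart libraries, 66109 to 91678 in lung libraries and 62597 to 75499 in liver libraries. Within lung the sum was 85999.7 in horse 27, 91678 in horse 30, 68646 in horse 32 and 66109 in horse 34. This sum was higher in the same pair of horses as miR-486-5p, but its highest value was 1.39 times its lowest, against 2.80 times for miR-486-5p. Most members did not split the lungs in this way. Only miR-92a (32449, 35277, 25584 and 17212) and miR-185 were higher in both horses of the pair than in both others. miR-16 (15481, 17652, 11429 and 17795), miR-15a, miR-15b and miR-106b were highest in horse 34. The part of blood in the result was not tested.

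The striated muscle list marked the heart far more sharply than miR-486-5p did. All 6 tested members were called higher in heart than in both other tissues (all tested, 19.9% over liver and 19.1% over lung), with log2 fold changes over liver from 5.80 (miR-206) to 12.24 (miR-133b) and over lung from 5.09 to 10.84, against 4.25 and 1.44 for miR-486-5p. miR-1 was 10.98 higher in heart than in liver and miR-133a, a partner of miR-1 in muscle, 11.49. miR-499-5p, encoded in a myosin heavy chain gene, was 10.16 higher, and miR-208b, which lies in another, 10.84. The last was at 0 in all lung and liver libraries. miR-206, typical of skeletal muscle, was at 38.5 to 80.8 normalized counts in heart, at 6.18 in the lung of horse 30 and at 0 in the other lungs and all livers, and miR-133b was at 0 in the liver of horse 27. The fitted values of these 3, and with them both ends of the range over liver, depend on the pseudocount. miR-208a was not tested, with 255 in the heart of horse 27 and 0 in the other libraries.

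Muscle miRNAs were far lower in lung than in heart, whereas miR-486-5p differed less between these tissues. The list summed to 8693 to 12572 normalized counts in lung and 1511 to 6447 in liver, against 5460482 to 8414016 in heart. In the same lungs miR-486-5p alone was at 23889 to 66840.1. Of the list, 3 of 6 were called higher in lung than in liver (all tested, 25%). Their list had a median log2 fold change of 1.21 (all tested, 0.08) and a highest of 3.22, against 2.82 for miR-486-5p. The lungs of horses 27 and 30, with high miR-486-5p, had a muscle sum of 8693 and 11444, and those of horses 32 and 34 had 10030.0 and 12572. The part of muscle in the lung values was not tested.

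Within heart, members of the striated muscle list differed in how far they followed miR-486-5p between horses. miR-133a was at 1332974, 1066430.3, 613594 and 283203 normalized counts in horses 27, 30, 32 and 34, and miR-133b at 116809, 65653, 38839 and 13028. Both were lowest in horse 34, where the normalized count of miR-486-5p was highest. By share miR-486-5p was highest in horse 32 (1.11%, against 1.06% in horse 34). miR-208b was also lowest in horse 34 (1741) and was highest in horse 32 (2100). miR-499-5p was at 141724, 215256, 340490 and 291587, higher in horses 32 and 34, as was the normalized count of miR-486-5p. miR-1 and miR-206 (38.5, 44.6, 63.7 and 80.8) were highest in horse 34, as miR-486-5p was. With 4 horses these orders are a description.

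Markers of other cells checked the tissue labels and were read beside miR-486-5p in lung. Of the hepatocyte list, 5 of 5 tested were called lower in heart and in lung than in liver (all tested, 27% and 26.6%), with miR-122 at 948651 to 1359774 normalized counts in liver and at most 3116 elsewhere. miR-148a of that list was at 470044 ± 106001 in liver and 132883 ± 100034 in lung (SD, n = 4). Of the epithelial and ciliated list, 9 of 9 tested were called higher in lung than in liver and lower in heart than in lung (all tested, 25% and 19.5%). Highest in lung were miR-34c of ciliated cells and miR-200c and miR-200b, which hold the epithelial state, at 26667, 26089.6 and 24820.5 on average. The lung libraries with high miR-486-5p (horses 27 and 30) had 85482 and 109803 normalized counts of this list in sum, and those of horses 32 and 34 had 109943 and 121862.

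White cell and platelet miRNAs were called higher in lung than in liver for 4 of 5 tested members (all tested, 25%). Of the 5, 1 (miR-342-5p) was called higher and 3 lower in heart than in lung (all tested, 19.1% and 19.5%), and 0 and 3 under CPM (all tested, 5.86% and 48.4%). miR-142-5p, the member not called, was listed at 0 in the lungs of horses 32 and 34 and in 3 livers, so its name cannot be compared. miR-150, of mature lymphocytes, was at 9073 ± 3141 in lung, 3519 ± 1141 in heart and 765 ± 267 in liver, and miR-146a, induced in inflammation, at 45409.5 ± 25189.9, 3255 ± 1215 and 12787 ± 2350 (SD, n = 4). Within lung, miR-150 was at 10942, 12364, 5500 and 7486 in horses 27, 30, 32 and 34, so that it too was high in the pair with high miR-486-5p. miR-146a was highest in the lung of horse 32 (78929), where miR-486-5p was low. miR-155 (3685) and miR-342-5p (1186) were also highest in that lung. The list, miR-142-5p included, summed to 73940, 57612, 89300 and 30464 in the lungs of horses 27, 30, 32 and 34. The part of white cells in the lung values was not tested.

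**Figure D4:**
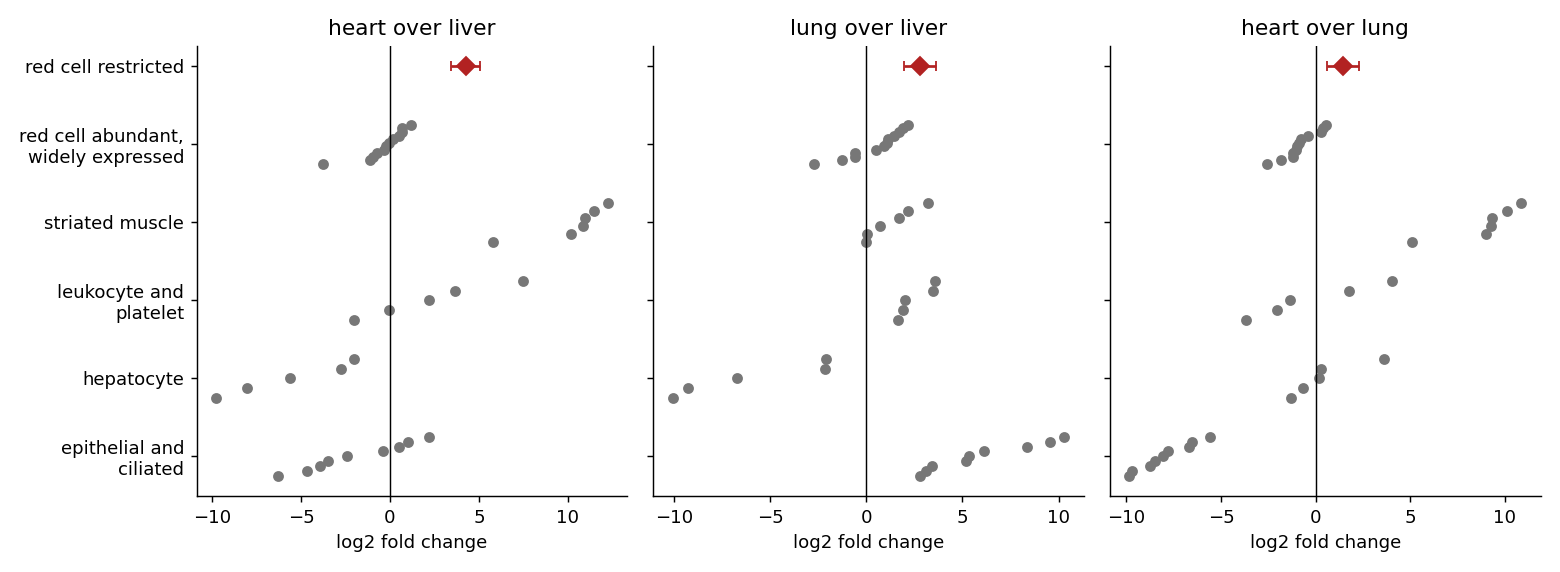
Log2 fold change on the authors' scale of each tested member of 6 cell type lists (grey points, 1 per miRNA) and of miR-486-5p (red diamond with its 95% interval) in 3 comparisons. miR-486-5p lies at 4.25, 2.82 and 1.44, between the striated muscle members and the widely expressed red cell members in heart over liver and in heart over lung.

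A falling order of heart, lung and liver was shared by few miRNAs. Being called higher in heart than lung, in heart than liver and in lung than liver held for 2.73% of the tested miRNAs, which were miR-486-5p, miR-1, miR-133a, miR-133b, miR-95, miR-100 and miR-342-5p. Values of the 3 tissues that did not overlap in this order were found for 3.91%. These 3 comparisons share libraries, and under CPM miR-486-5p was not called higher in heart than lung.

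By the shape of its profile, miR-486-5p was most like miR-342-5p. The root mean square difference over 12 libraries, after each miRNA's own mean was taken off the log2 values, was 0.672 for miR-342-5p, 0.846 for miR-100, 0.893 for miR-454, 0.899 for miR-27b, 0.899 for miR-24 and 0.979 for miR-504. The median over the other 255 tested miRNAs was 2.22. miR-342-5p comes from an intron of EVL and is a member of the white cell and platelet list. It was at 3426 ± 577 in heart, 1009.7 ± 135 in lung and 271 ± 19.7 in liver (SD, n = 4). It was 3.65 higher in heart than in liver and 1.89 higher in lung than in liver on the log2 scale, against 4.25 and 2.82 for miR-486-5p. miR-27b and miR-24, which share a cluster, were higher over liver by 2.46 and 2.34 in heart and by 1.72 and 2.12 in lung. Neither was called between heart and lung. Under CPM, 5 of these 6 remained among the 6 most alike, with miR-2483 in place of miR-504. All these profiles share the same libraries and size factors.

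**Figure D5:**
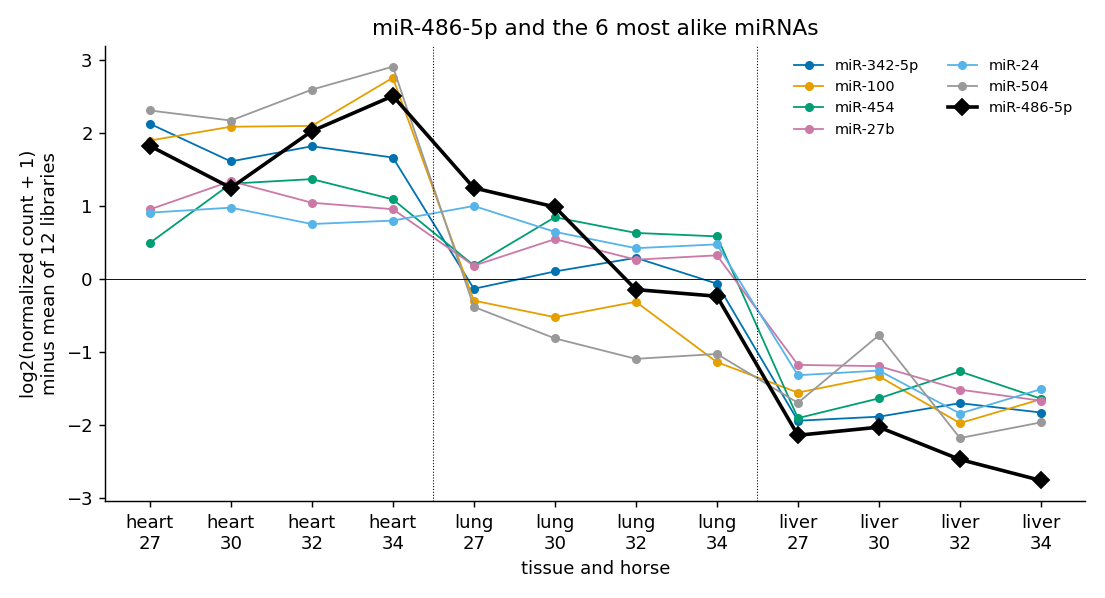
Log2(normalized count + 1) minus the mean of 12 libraries for miR-486-5p (black) and the 6 miRNAs with the smallest root mean square difference from it, by tissue and horse. The order of horses has no meaning. miR-486-5p falls from heart to liver like the others, but in lung its points for horses 27 and 30 lie above those for horses 32 and 34.

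Differences between tissues made up most of the variation of miR-486-5p. They accounted for 92.8% of its sum of squares on the log2 scale (median of all tested miRNAs, 73.2%). Differences between horses in their mean over the tissues accounted for 1.24% (median, 6.44%). Horse orders that differ between tissues, as in heart and lung, cancel in that mean, so this part does not measure the spread within a tissue. Under CPM the tissue part was 90.0%, against a median of 83.6%. The SD of its log2 values between horses was 0.521 in heart, 0.764 in lung and 0.332 in liver. Among miRNAs whose mean in the tissue reached 1000, the median SD was 0.463 in heart, 0.453 in lung and 0.324 in liver, and 18 of 104 exceeded miR-486-5p in lung. The lung was where miR-486-5p varied most between horses.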

How the data were processed

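Each deposited value is a read count that the authors divided by a DESeq2 size factor, a signal without a further unit. By the study's methods, reads from NEBNext small RNA libraries were checked with FastQC, trimmed with Trim Galore, and counted with sRNAbench against miRBase and EquCab3.0 at a minimum of 6 reads. The submitters' processing notes name Trimmomatic and BWA instead. The authors' own columns of liver over lung (log2 fold change, its error, statistic and p-values) were not used. All values above 0 (100%, within 0.01) were whole multiples of 1/6 of the lowest value in the library, from which reads were derived. Count tests were not run. 0 sample columns were left unused.

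Known miRNAs entered the test if they reached 10 normalized counts in 4 or more libraries (256 did). limma 3.58.1 (R 4.3.3) was fitted to log2 values with a pseudocount of 1, a variance trend, all 12 libraries together and Benjamini-Hochberg adjustment, and fold changes are on this scale. A call took an adjusted p under 0.05 with a log2 fold change of 1 or more in size. The fit was tested on simulated data. Shares and ratios were compared by exact two-sided permutation tests (Python 3.11.15, scipy 1.17.1). Alternatives changed the pseudocount, filter, scaling, denominator, reference and libraries.

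The same number is the same horse, which pairs the samples. Deviations from tissue means correlated between -0.27 and 0.15 within horses (12 pairs, median -0.057) and between -0.27 and 0.36 across horses (36 pairs, median 0.028). miR-486-5p, the lists and the tests were chosen with earlier results of these data known. Named were miR-486-5p, miR-128, the measured red cell restricted and striated muscle miRNAs, the 2 most abundant members of each other list, the 6 most alike miRNAs, the neighbours by mean and the most abundant miRNA per tissue. The other reference miRNAs and those sharing the order of tissues, and further members named for their values, were added later. miR-486-3p, miR-451, miR-223, miR-142-3p, miR-342-3p, miR-885-3p, miR-499-3p and eca-miR-107 were not analysed here.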

Additional observations from a re-analysis of the deposited data

How the results depend on the processing

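The excess of miR-486-5p over liver was called under each of the 15 other settings and in each of 16 fits without a horse or a library, for heart (3.91 to 4.58 on the log2 scale when libraries were left out) and for lung (2.55 to 3.05). Heart over lung was called under 12 of 15 settings. It was 0.050 under CPM, 0.050 under the replicate block with CPM and 0.96 without miR-1, and 1.003 to 1.83 with a horse or library left out, called in 14 of 16. The replicate block alone changed no call of miR-486-5p. The 95% interval of heart over lung is wide at 4 horses, and depth is not its limit.

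Called miRNAs in heart versus liver were 51 higher and 69 lower, 26 and 138 under CPM with or without the replicate block, and in heart versus lung 49 higher and 50 lower, 15 and 124 under CPM and 15 and 123 under the replicate block with CPM. The split also moved without miR-1 (33 higher and 75 lower in heart versus lung) and without the striated muscle and hepatocyte lists (40 and 99 in heart versus liver, 43 and 74 in lung versus liver, against 64 and 68). With a horse or a library left out, the counts were 43 to 55 and 59 to 73 in heart versus liver, 51 to 65 and 63 to 71 in lung versus liver and 42 to 52 and 43 to 53 in heart versus lung.

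For shares and ratios the replicate block, an exact sign-flip test within 4 horses, cannot go below p = 0.125. Differences in share of 0.817 and 0.840 percentage points (heart and lung over liver) therefore could not pass. Nor could differences of 4.12 and 3.12 in log2 ratio to miR-128. Tests of 3 horses against 3 could not pass either (adjusted p = 0.15, exact permutation). Their differences in share were 0.758 to 0.9498 and 0.689 to 0.990 percentage points. Those in log2 ratio were 3.997 to 4.29 and 2.87 to 3.53. For heart minus lung the differences in share ran from -0.232 to 0.205 percentage points and those in log2 ratio from 0.56 to 1.42. In place of miR-128, heart over lung passed with let-7a (1.87), miR-191a (2.03), miR-16 (2.66) and miR-25 (2.21), and lung over liver did not pass with miR-16 (0.89). The references with which heart over lung passed were themselves lower on average in heart than in lung. The references miR-16, miR-25 and miR-92a were chosen after the data were seen, as were the red cell sum without miR-103 and leaving out a horse under CPM. The last gave -0.31 to 0.46 for heart over lung. The cause of these changes was not tested. Values of miR-486-3p and its ratio were not run, since that strand was not analysed here.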
